A study of Mus musculus with 12 samples.

Results

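The 10 genes described here, Nos1ap, Kcnq1, Kcne1, Kcne3, Kcnh2, Kcnj2, Kcnj11, Kcnj12, Kcnj3 and Kcna5, act in cardiac repolarisation or bear on the QT interval. They were taken by gene symbol from a count table of 40800 Ensembl genes, with 1 row each and no count filter. All 10 also passed the low-count filter of the test, which left 14774 genes. The libraries came from mouse heart ventricles at embryonic day 12.5, 6 labelled as Wnt gain of function (Wnt GOF) and 6 labelled as control, and were sequenced as bulk RNA. The labels give neither the Wnt GOF allele nor a Cre driver, nor the strain, the alleles of the controls, or whether a library pools embryos. The deposited counts summed to between 12127026 and 17184662 in Wnt GOF libraries and between 10130088 and 17526325 in control libraries. No label says that replicates are separate embryos, so p-values speak only of the spread among libraries, which may be technical.

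Repolarisation ends the cardiac action potential. Potassium leaves the myocyte through channels that open at different voltages and speeds, and the QT interval of the electrocardiogram spans the time until the ventricle has repolarised. Kcnq1 with Kcne1 forms the slow, and Kcnh2 the rapid, delayed rectifier channel; Kcnj2 and Kcnj12 carry the inward rectifier current that holds the resting potential. NOS1AP, an adaptor of neuronal nitric oxide synthase, lies at the human locus best known for common variants associated with QT duration. The title of the series sets the comparison of Wnt GOF with control ventricles in the context of arrhythmia.

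The ventricular markers Myl2 and Irx4 were present in every library, Irx4 at 13.1 to 17.1 CPM (counts scaled to library size) in Wnt GOF and at 13.9 to 19.3 CPM in control libraries. The Wnt target Axin2, a check of the genotype label, was higher in Wnt GOF by 2.62 on the log2 scale (edgeR adjusted p = 0.0145). The library labelled Wnt GOF replicate 5 stood at 3.77 CPM of Axin2, inside the control range of 1.39 to 4.13 CPM. The Axin2 call was kept in 19 of 23 alternatives and lost with the replicate block (adjusted p = 0.125), in limma-voom (0.0982), with the 3 closest library pairs summed (0.22) and without 4 libraries described next as set 1 (0.443). Notum, another Wnt target, was higher by 4.84 on the log2 scale (edgeR adjusted p = 0.0095), without overlap, at 1.18 to 22.4 CPM in Wnt GOF and 0.115 to 0.874 CPM in control. Wnt GOF replicate 5 was its lowest Wnt GOF library. The Notum call was lost in limma-voom (0.177), with the closest pairs summed (0.208) and without set 1 (0.347). Clustering of these same data, cut at a chosen number of 3, split the libraries into sets that cut across the groups. Each set held 2 Wnt GOF and 2 control libraries, and no label names the sets. Set 1 held Wnt GOF replicates 1 and 2 with control replicates 2 and 3. The sum of the atrial markers Sln, Myl7, Myl4, Nr2f1 and Nr2f2 is made up mostly of Myl7 and Myl4. In set 1 this sum was 3653 and 3666 CPM in the Wnt GOF libraries and 2772 and 2690 CPM in the control libraries. These lay below the 4208 to 5268 CPM of the other 8 libraries. The 8 summed cardiomyocyte markers of set 1 reached 27319 and 27479 CPM in Wnt GOF and 28358 and 28779 CPM in control libraries, above the 21103 to 25083 CPM of the others. Its erythroid markers were the lowest of each group. Set 2 held Wnt GOF replicates 3 and 4 with control replicates 4 and 5, and set 3 held Wnt GOF replicates 5 and 6 with control replicates 1 and 6. In bulk tissue, fewer cells of a type and less RNA per cell cannot be told apart.

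Nos1ap was the only one of the 10 genes to pass the test over all genes, and it rose in Wnt GOF ventricles. Nos1ap (ENSMUSG00000038473) was at 26.1, 31.3 and 37.6 CPM (lowest, median and highest of 6 libraries) in Wnt GOF, against 15.4, 20.7 and 22.3 CPM in control. Every Wnt GOF library lay above every control library. The means were 31.6 ± 5.75 CPM in Wnt GOF and 19.5 ± 2.92 CPM in control (SD, n = 6 each), from at least 336 and 163 counts per library. This is a fold of 1.63, or a log2 fold change of 0.70 ± 0.131 (SE, 95% interval 0.42 to 0.98), with an adjusted p of 0.022 in edgeR's quasi-likelihood test. Of all tested genes, 0.433% were called higher and 0.0677% lower by this rule. Groups did not overlap in 0.46% of tested genes, with Wnt GOF higher in 0.298%. Nos1ap ranked 44 of 14774 by p. Within the 3 library sets its log2 ratios of mean CPM were 0.73, 0.75 and 0.63. Its lack of overlap within each set follows from that between the whole groups and adds no evidence. Of all tested genes, 1.52% were higher without overlap in all 3 sets.

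**Figure D1:**
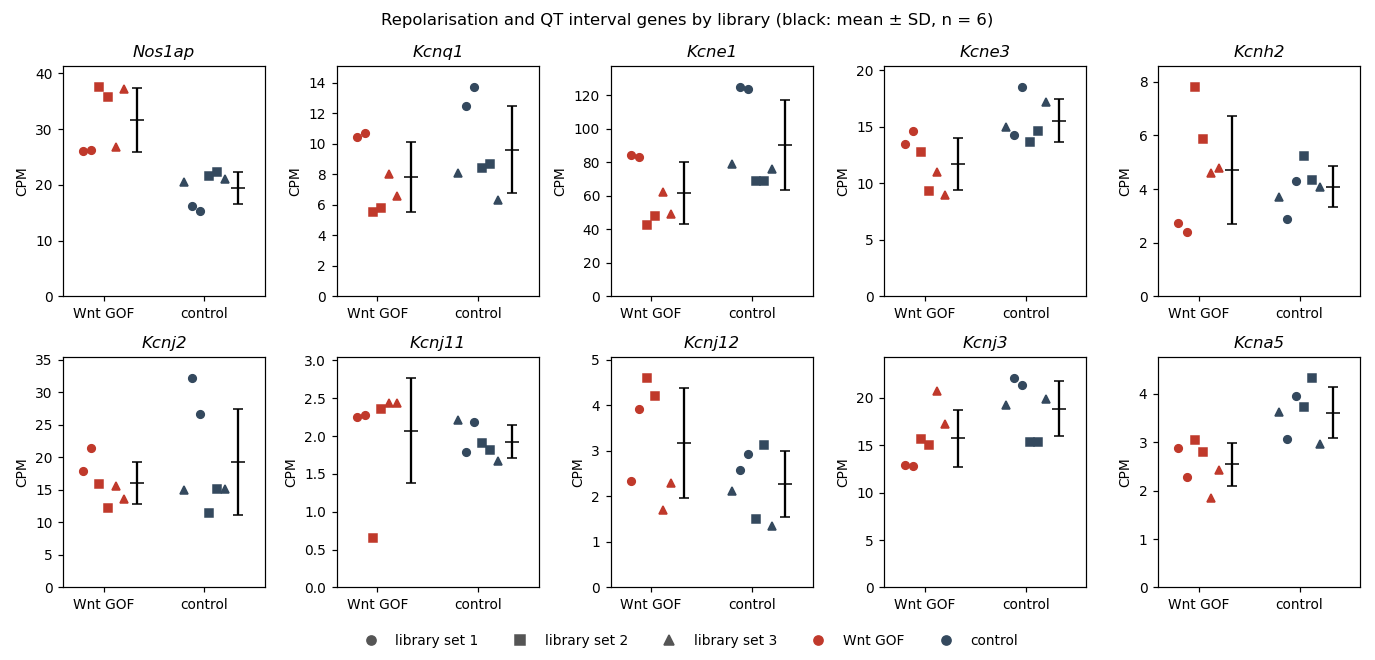
CPM of each gene in each library, with Wnt GOF libraries left of control libraries. Point shapes give the library set and black bars the mean ± SD of 6 libraries. Nos1ap is the only panel in which the groups do not overlap, while Kcne1, Kcnq1 and Kcnj2 are highest, within each group, in the set 1 libraries (circles).

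At the threshold of 0.05 the call of Nos1ap held in 16 of 23 alternatives, and its direction in all 23. It was lost in limma-voom (adjusted p = 0.0565), with the closest library pairs summed (0.208), without Wnt GOF replicates 3, 4 or 6 (0.0552, 0.06 and 0.0725) or control replicate 2 (0.0525), and without the 4 libraries of set 1 (0.0848). Without Wnt GOF replicate 5, edgeR gave an adjusted p of 0.00794, and blocking on library set gave 0.000103. The blocked p can be too small, because the sets were found on these same libraries and the fit counts the closest library pairs as independent. In the authors' deposited table Nos1ap had a log2 fold change of 0.70 and an adjusted p of 0.0612. Its exons share 171 bases with those of Gm7694 on the same strand.

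Markers of other cells were read beside this result. The 6 macrophage and leukocyte markers summed to 40.8 to 78.9 CPM in Wnt GOF and 40.0 to 52.4 CPM in control libraries. Of the 6, 0 were called, all were above 0 in log2 fold change and 4 had an edgeR unadjusted p under 0.05. Of all tested genes 6.3% had such a p, 3.73% higher in Wnt GOF. The 6 endothelial and endocardial markers summed to 642.5 to 706.5 CPM in Wnt GOF and 587.3 to 643.7 CPM in control. Of these, 0 of 6 were called and 1 had an edgeR unadjusted p under 0.05, higher in Wnt GOF. The 5 neural and Schwann cell markers summed to 16.8 to 23.7 CPM in Wnt GOF and 14.5 to 25.5 CPM in control, and Sox10, which marks Schwann cells, did not exceed 0.191 CPM in any library. Among 5 mural markers, summing to 1169 to 1297 CPM in Wnt GOF and 1277 to 1514 CPM in control, Rgs5 alone was called, at a log2 fold change of -2.54. The 8 cardiomyocyte markers summed to 21103 to 27479 CPM in Wnt GOF and 21261 to 28779 CPM in control. Of these, 0 were called and 1 had an edgeR unadjusted p under 0.05, higher in Wnt GOF. Epicardial markers summed to 206.2 to 281.3 CPM in Wnt GOF and 197.9 to 295.1 CPM in control, and cushion mesenchyme markers to 651.0 to 883.5 CPM in Wnt GOF and 696.4 to 1110.1 CPM in control, with 0 called. No marker was at 0 in all libraries. The part of these cell types in the Nos1ap result was not tested.

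Nos1ap has a pair of RefSeq start windows, each spanning 250 bases before and 50 after an annotated start (GRCm38.p6, 5′ to 3′, the 50 bases from the start on in capitals). They are shown because the gene-level count sums all transcripts and cannot say from which start the additional Nos1ap RNA came.
Nos1ap start window, chr1:170589800-170590099, minus strand: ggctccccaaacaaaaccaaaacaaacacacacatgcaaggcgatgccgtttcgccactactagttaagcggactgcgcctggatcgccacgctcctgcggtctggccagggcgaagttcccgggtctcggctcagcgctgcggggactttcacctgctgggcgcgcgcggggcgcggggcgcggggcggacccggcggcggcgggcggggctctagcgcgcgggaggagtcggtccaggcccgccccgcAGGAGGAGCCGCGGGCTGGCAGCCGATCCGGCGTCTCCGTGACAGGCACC
Nos1ap start window, chr1:170557061-170557360, minus strand: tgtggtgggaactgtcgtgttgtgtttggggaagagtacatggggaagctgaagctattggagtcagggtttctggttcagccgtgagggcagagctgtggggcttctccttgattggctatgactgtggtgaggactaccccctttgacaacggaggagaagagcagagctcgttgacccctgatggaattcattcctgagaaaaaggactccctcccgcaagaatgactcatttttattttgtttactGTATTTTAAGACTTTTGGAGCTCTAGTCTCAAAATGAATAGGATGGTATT
The bases just after the upstream start occur in the early part of 3 of the 9 GENCODE M21 transcripts of the gene. Those just after the downstream start occur in 1 of them. Such a match does not show that a transcript starts there, and other transcripts match no window. The upstream window is 71.7% G or C with 39 CpG dinucleotides. The downstream window is 47.0% G or C with 5 CpG dinucleotides. Neither holds the core letters CTTTGAA or CTTTGAT, on either strand, of the motif bound by the Wnt-responsive TCF/LEF factors. Of 32851 RefSeq windows of this length, 8.65% hold one of them, and the windows found for 7 of the 10 genes, 9 in all, hold none.

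Nos1, the synthase that the Nos1ap protein binds, was below the count filter. It had 65 counts in all Wnt GOF libraries together against 10 in all control libraries, at 0.176 to 1.78 CPM in Wnt GOF and 0 to 0.238 CPM in control. The groups overlapped, and without a count filter edgeR gave a log2 fold change of 2.49 ± 0.623 and an adjusted p of 0.0914.

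The slow delayed rectifier genes Kcne1 and Kcnq1 did not pass the test, and in both groups they were highest in the libraries of set 1. Kcne1 (ENSMUSG00000039639), the regulatory subunit that slows the opening of Kcnq1 channels, was at 42.4, 55.7 and 84.3 CPM in Wnt GOF and at 68.6, 77.5 and 125.2 CPM in control libraries (lowest, median and highest). The groups overlapped, with means of 61.6 ± 18.4 CPM in Wnt GOF and 90.3 ± 26.9 CPM in control (SD, n = 6 each). On the log2 scale the difference was -0.55 ± 0.218 (SE, 95% interval -1.02 to -0.08), with an edgeR adjusted p of 0.604. In set 1 it averaged 83.9 CPM in Wnt GOF and 124.6 CPM in control, in set 2 45.3 CPM in Wnt GOF and 68.7 CPM in control, and in set 3 55.7 CPM in Wnt GOF and 77.5 CPM in control. Within each set both Wnt GOF libraries lay below both control libraries, by log2 ratios of -0.57, -0.60 and -0.48, which held for 1.44% of tested genes. Blocking on library set, edgeR called Kcne1 lower (adjusted p = 0.000103), where 2% of all tested genes were called, 1.32% higher and 0.677% lower. The sets were found on these same libraries, and the fit counts the 3 closest library pairs as independent, so that this p can be too small. These pairs are Wnt GOF replicates 1 and 2, Wnt GOF replicates 3 and 4, and control replicates 2 and 3. The block on library set was the only 1 of 23 alternatives that called Kcne1.

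Kcnq1 (ENSMUSG00000009545), the pore subunit, was at 5.51, 7.28 and 10.7 CPM in Wnt GOF and at 6.31, 8.54 and 13.7 CPM in control libraries. The groups overlapped and the log2 fold change was -0.29 ± 0.215 (edgeR adjusted p = 0.999, 95% interval -0.75 to 0.16). In set 1 it averaged 10.5 CPM in Wnt GOF and 13.1 CPM in control. Its exons share 121 bases with the antisense gene Kcnq1ot1, and without a stated strand setting reads there cannot be assigned to one of them.

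Kcne3 (ENSMUSG00000035165), a related subunit that holds Kcnq1 channels open in epithelia, was at 8.93, 11.9 and 14.7 CPM in Wnt GOF and at 13.7, 14.8 and 18.5 CPM in control. Only Wnt GOF replicate 2, at 14.7 CPM, reached into the control range. Its log2 fold change was -0.41 ± 0.134 (edgeR unadjusted p = 0.00751, adjusted p = 0.368). Blocking on library set gave an adjusted p of 0.0536.

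**Figure D2:**
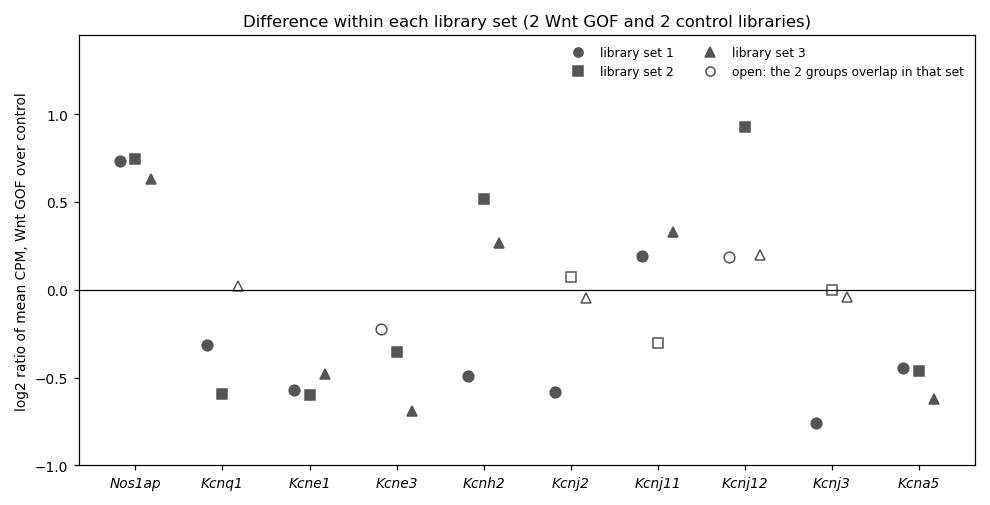
Log2 ratio of mean CPM, Wnt GOF over control, of each gene within each library set (2 Wnt GOF and 2 control libraries per set). Filled points mark sets in which the groups did not overlap. Nos1ap lies above 0 and Kcne1 and Kcna5 lie below 0 with filled points in all 3 sets, while Kcnj3 reaches -0.76 in set 1 and lies near 0 in sets 2 and 3. Of all tested genes, 1.52% were higher and 1.44% lower without overlap in all 3 sets.

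The remaining pore genes did not pass the test. Kcna5 (ENSMUSG00000045534), which encodes the ultrarapid delayed rectifier channel, was at 1.85, 2.62 and 3.04 CPM in Wnt GOF and at 2.97, 3.68 and 4.33 CPM in control. The ranges met only between Wnt GOF replicate 3 and control replicate 6. A log2 fold change of -0.50 ± 0.168 was fitted (edgeR unadjusted p = 0.0087, adjusted p = 0.393), from 25 to 69 counts per library. Within the library sets its log2 ratios were -0.45, -0.46 and -0.62, each without overlap. Of all tested genes, 1.44% were lower without overlap in all 3 sets. Blocking on library set, edgeR did not call Kcna5 (adjusted p = 0.106).

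Kcnh2 (ENSMUSG00000038319), the pore of the rapid delayed rectifier and the target of many QT-prolonging drugs, was at 2.40, 4.69 and 7.81 CPM in Wnt GOF and at 2.88, 4.19 and 5.24 CPM in control. The Wnt GOF group held both the lowest and the highest libraries. The log2 fold change was 0.19 ± 0.254 (edgeR adjusted p = 0.999, 95% interval -0.35 to 0.73), and it was -0.011 without Wnt GOF replicate 3. Within sets the log2 ratio was -0.49 in set 1, 0.51 in set 2 and 0.27 in set 3, without overlap in any of them. The share of all tested genes with such a pattern of mixed direction was not counted, so it is not read as a result.

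Neither gene of the resting inward rectifier current passed the test. Kcnj2 (ENSMUSG00000041695), the main cardiac inward rectifier pore, was at 12.2, 15.7 and 21.4 CPM in Wnt GOF and at 11.5, 15.2 and 32.2 CPM in control. Control replicates 2 and 3 of set 1 stood at 32.2 and 26.8 CPM, and the other 4 control libraries at 11.5 to 15.2 CPM. Its log2 fold change was -0.26 ± 0.232 (edgeR adjusted p = 0.999), and 0.014 without the 4 libraries of set 1. Kcnj12 (ENSMUSG00000042529), its close relative, was at 1.7, 3.13 and 4.6 CPM in Wnt GOF and at 1.36, 2.35 and 3.12 CPM in control, with an estimated log2 change of 0.50 ± 0.28 (SE, adjusted p = 0.939 in edgeR). Its difference was largest in set 2, at a log2 ratio of 0.93, against 0.18 and 0.20 in sets 1 and 3, where the groups overlapped.

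Kcnj3 (ENSMUSG00000026824), which with Kcnj5 forms the acetylcholine-activated channel of atrial and pacemaker cells, was at 12.8, 15.3 and 20.7 CPM in Wnt GOF and at 15.3, 19.6 and 22.1 CPM in control. Its log2 fold change was -0.27 ± 0.135 (edgeR adjusted p = 0.857). The difference stood in set 1, with 12.9 CPM in Wnt GOF and 21.8 CPM in control on average, while set 2 averaged 15.3 CPM in both groups and set 3 had 19.0 CPM in Wnt GOF and 19.6 CPM in control. It was -0.022 without the set 1 libraries, whose atrial marker sums are given above, and the part of atrial tissue was not tested. Its exons share 1621 bases with the antisense gene Gm26794.

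Kcnj11 (ENSMUSG00000096146), the pore of the ATP-sensitive potassium channel, was at 0.658, 2.32 and 2.44 CPM in Wnt GOF and at 1.67, 1.86 and 2.21 CPM in control, from 8 to 39 counts per library. Wnt GOF replicate 3, with 8 counts, stood apart from the other Wnt GOF libraries. For this gene edgeR gave a log2 fold change of 0.11 ± 0.249 (SE, 95% interval -0.42 to 0.64) and an adjusted p of 0.999.

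Across the 10 genes, 1 was higher, 0 lower and 9 did not pass in edgeR, where 0.501% of all tested genes were called in either direction. DESeq2, which called 1.08% of tested genes, also called Nos1ap alone. Without adjustment 4 of the 10 had a p under 0.05, Nos1ap with the higher mean in Wnt GOF and Kcne1, Kcne3 and Kcna5 with the lower. Of all tested genes 6.3% did so, 3.73% higher and 2.57% lower. The median log2 fold change of the 10 was -0.26, against 0.00131 over all tested genes.

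**Figure D3:**
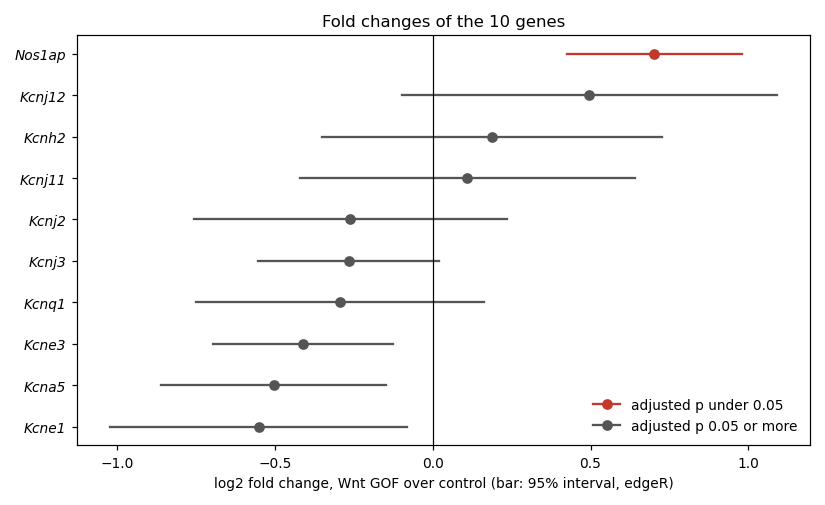
Log2 fold change of Wnt GOF over control for each gene, with its 95% interval from edgeR, from the highest at the top to the lowest. The intervals are for single genes and are not adjusted for the number of genes tested. Nos1ap at 0.70 is the only gene with an adjusted p under 0.05.

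Levels per length were compared as CPM per kilobase of exon, with exon lengths of GENCODE M21, which may differ from the annotation the authors counted on. In both groups Kcne1 came first, at 19.2 ± 5.74 in Wnt GOF and 28.1 ± 8.37 in control (SD, n = 6 each), and Kcne3 next, at 6.58 ± 1.3 in Wnt GOF and 8.74 ± 1.07 in control. Each stood above the next gene by more than both SDs. In Wnt GOF Nos1ap followed at 4.37 ± 0.794, then Kcnj3, Kcnj2, Kcnq1, Kcnj12, Kcnh2, Kcna5 and Kcnj11, and no gene among these 8 differed from its neighbour in this order beyond their spread. In control Kcnj3, Kcnj2, Nos1ap at 2.68 ± 0.403 and Kcnq1 came next, without gaps between neighbours beyond the spread, and then Kcna5, Kcnh2, Kcnj12 and Kcnj11. There Kcna5 stood below Kcnq1 and above Kcnh2 by more than the SDs, while Kcnh2 and Kcnj12 did not differ beyond their spread, nor did Kcnj12 and Kcnj11. The lowest, Kcnj11, was at 0.563 ± 0.19 in Wnt GOF and 0.524 ± 0.0603 in control.

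**Figure D4:**
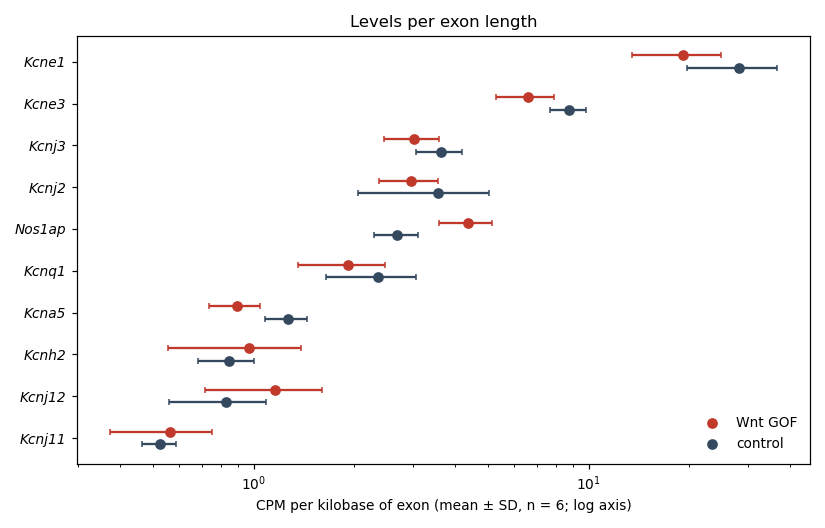
CPM per kilobase of exon on a log axis, as mean ± SD of 6 libraries, with Wnt GOF drawn above control for each gene. Genes run from the highest to the lowest control mean, and Nos1ap is the gene whose Wnt GOF and control bars stand apart in the direction of Wnt GOF.

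Ratios of channel partners within a library do not depend on library scaling, and 5 were compared. The log2 ratio of Kcne1 to Kcnq1 counts was 2.97 ± 0.0553 in Wnt GOF and 3.23 ± 0.222 in control (SD, n = 6 each), a difference of -0.26 (exact two-sided permutation test, p = 0.0152, adjusted p over the 5 ratios = 0.0758). All 6 Wnt GOF libraries lay below the control mean, and the Wnt GOF range of 2.89 to 3.05 overlapped the control range of 2.98 to 3.59. By set the difference was -0.26 in set 1, -0.0099 in set 2 and -0.51 in set 3, and without set 1 it was -0.26 (exact permutation p = 0.114, adjusted p = 0.5). The log2 ratio of Kcnj3 to Kcnj5, its channel partner, was -1.08 ± 0.231 in Wnt GOF and -0.67 ± 0.292 in control, a difference of -0.40 (exact permutation p = 0.0303, adjusted p = 0.0758), with 6 of 6 Wnt GOF libraries below the control mean. By set it was -0.98 in set 1, 0.021 in set 2 and -0.24 in set 3, and without the set 1 libraries it was -0.11 (exact permutation p = 0.4, adjusted p = 0.5). With 4 libraries a group, the smallest p that this test allows is 0.0286. Kcnj12 to Kcnj2 was at -2.40 ± 0.636 in Wnt GOF and -3.03 ± 0.489 in control (exact permutation p = 0.0866, adjusted p = 0.144), with 5 of 6 Wnt GOF libraries above the control mean. Kcne3 to Kcnq1 and Kcnj11 to Abcc9, the cardiac sulfonylurea receptor, differed by -0.13 and 0.14 (exact permutation, adjusted p = 0.686 for both). No ratio passed after adjustment, and the smallest p that the 924 splits allow is 0.00216. Leaving out control replicate 5 gave an adjusted p of 0.0216 for Kcne1 to Kcnq1 (exact permutation), and leaving out control replicate 4 gave 0.0325 for it and 0.0487 for Kcnj3 to Kcnj5. With other single libraries left out, the adjusted p rose to as much as 0.146 for Kcne1 to Kcnq1 and 0.157 for Kcnj3 to Kcnj5 (exact permutation).

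**Figure D5:**
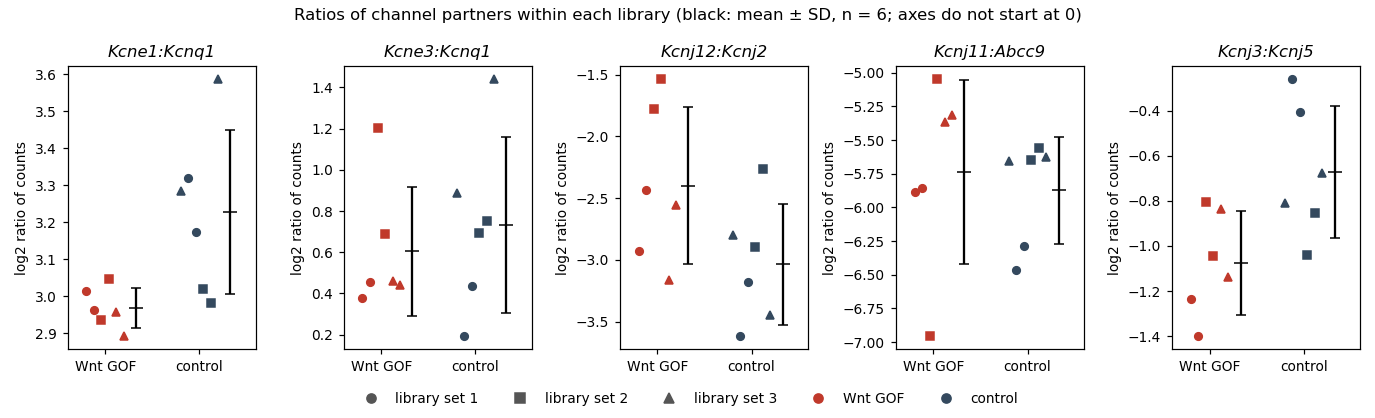
Log2 ratio of the counts of channel partners in each library, Wnt GOF left of control, with shapes for the library sets and black bars for mean ± SD of 6 libraries. The Kcne1 to Kcnq1 ratio lies between 2.89 and 3.05 in all Wnt GOF libraries and spreads up to 3.59 in control libraries.

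Of 48 other potassium channel genes found, 31 were tested, and 2 rose, 0 fell and 29 did not pass in edgeR. Of all tested genes, 0.501% were called in either direction. Without adjustment 9 of the 31 had an edgeR p under 0.05, 6 higher and 3 lower in Wnt GOF, against 6.3% of all tested genes. The median log2 fold change of the 31 was -0.11. Dpp6, an auxiliary subunit of transient outward channels, was at 0.962, 14.8 and 18.9 CPM in Wnt GOF and at 0.345, 0.955 and 1.21 CPM in control (lowest, median and highest), which is 3.91 on the log2 scale (edgeR adjusted p = 0.0145). Its lowest Wnt GOF library, replicate 5, lay inside the control range. Kcnh7, a channel of the same family as Kcnh2, was at 14.7, 23.7 and 29.2 CPM in Wnt GOF and at 8.27, 13.3 and 16.7 CPM in control, which is 0.89 on the log2 scale (edgeR adjusted p = 0.0277). Again only replicate 5 of Wnt GOF overlapped the control libraries. The Kcnh7 call was kept in 10 of 23 alternatives, that of Dpp6 in 20. Dpp6 was lost in limma-voom (adjusted p = 0.233), with the closest pairs summed (0.208) and without set 1 (0.437). Kcnh7 was lost with any 1 of Wnt GOF replicates 1, 2, 3, 4 and 6 or control replicates 1, 2, 4 and 5 left out (adjusted p from 0.0506 to 0.0825), and with the replicate number as a block (0.114). It was also lost in limma-voom (0.0803), with the closest pairs summed (0.402) and without set 1 (0.283). Among genes that did not pass, the transient outward pore Kcnd3 differed by 0.82 on the log2 scale (edgeR adjusted p = 0.0627), and Kcnk2, a stretch-sensitive background channel, of 1.06 (0.11).

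Of 20 other genes tied to the QT interval, 18 were tested, and 1 rose, 0 fell and 17 did not pass in edgeR, with a median log2 fold change of -0.029. Of all tested genes, 0.501% were called in either direction. Without adjustment 2 of the 18 had an edgeR p under 0.05, against 6.3% of all tested genes. The gene that rose was Scn4b, an auxiliary sodium channel subunit, at 1.63, 4.07 and 5.54 CPM in Wnt GOF and 0.23, 0.791 and 1.48 CPM in control (2.33 on the log2 scale, edgeR adjusted p = 0.0145). Its call was kept in 20 of 23 alternatives and lost in limma-voom (adjusted p = 0.0504), with the closest pairs summed (0.208) and without set 1 (0.155). Trdn, a calcium release unit protein, and Atp1b1, a sodium pump subunit, had log2 differences of -0.16 and 0.29 (edgeR adjusted p = 0.939 for both).

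Profiles over the 12 libraries were compared as the root mean square difference of log2 CPM scaled to mean 0 and SD 1, where smaller is more alike. The genes nearest to Nos1ap were Oprk1 at 0.227 and Trps1 at 0.301, with log2 fold changes of 1.70 and 0.28 (edgeR adjusted p = 0.0783 and 0.339). Nearest to Kcne1 was Slc2a4, the insulin-responsive glucose transporter, at 0.144, followed by Fam134b at 0.214. Slc7a2 and Sgcd were nearest to Kcnq1 (0.243 and 0.246), and Nceh1 and Tmtc1 to Kcnj2 (0.236 and 0.251). Mbnl1 and Ets1 were nearest to Kcnj3 (0.301 and 0.364), Arrdc4 and Eif4g1 to Kcnh2 (0.309 and 0.341), and Rnf24 and Fam57a to Kcnj11 (0.378 and 0.448). The nearest genes of Kcnj12, Akap17b and Kcnt2, lay at 0.464 and 0.476, of Kcne3, Bnip1 and 4933417O13Rik, at 0.48 and 0.503, and of Kcna5, Rps19-ps8 and Slc4a4, at 0.527 and 0.543. These profiles share the library sets as well as the groups.

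In the authors' deposited table none of the 10 genes had an adjusted p under 0.05. Its log2 fold changes were -0.55 for Kcne1, -0.44 for Kcne3 and -0.51 for Kcna5, with adjusted p of 0.515, 0.416 and 0.485. They lay between -0.29 and 0.48 for Kcnq1, Kcnj3, Kcnj2, Kcnj11, Kcnh2 and Kcnj12.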

How the data were processed

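Bulk RNA of 6 Wnt GOF and 6 control mouse ventricle samples was sequenced. Trizol was used for RNA, per the labels' protocols. Subread, featureCounts and edgeR are named in the submitters' processing notes. Their versions and the build, annotation and strand setting were not given in the sources used here. The deposited values are whole-number counts per gene, per the file headers. Its 41422 rows cover 40800 IDs, and 622 repeated rows with identical counts were dropped. The deposited table also holds GC percent as an annotation column, left unused here. The authors' deposited comparison holds log2 fold changes, log2 CPM, p-values and a log-odds score, with limma's column names, per the file headers.

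Groups follow the genotype labels and replicate numbers the titles. Genes were kept by filterByExpr (minimum count 10), scaled by TMM and tested with edgeR 4.0.16 in R 4.3.3 (robust quasi-likelihood, group only), with Benjamini-Hochberg adjustment over 14774 genes and a threshold of 0.05. The test was checked on simulated independent counts with log2 changes of 1 or 2 in either direction, of which 74% to 100% were recovered at each size. The simulation held no library sets and no close pairs, and smaller changes were not simulated. CPM uses TMM-scaled library sizes of the tested genes. Ratios used counts plus 0.5 and exact permutation tests in Python 3.11.15. For the library sets, each library's deviation from its group mean was correlated with those of the others, and average linkage was cut at 3 clusters. No library pair of a group agreed within sampling noise (the lowest mean chi-square was 3.07, using genes whose pair total reached 20 counts). Yet 3 pairs stood far closer than the rest: Wnt GOF replicates 3 and 4 (3.07), Wnt GOF replicates 1 and 2 (3.10) and control replicates 2 and 3 (3.32). The next pair was at 12.8. The labels do not say whether such pairs share an embryo or pool, so n = 6 counts libraries. In set 3, Wnt GOF replicates 5 and 6 were at 59.4 and control replicates 1 and 6 at 19.8.

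The members, both lists of other genes, the markers and the alternatives were chosen with earlier results of these data known. The genes named are all 10 members, the calls and the 4 lowest p of each list of other genes, the 2 nearest profiles of each member, and Axin2 and Notum as the check of the genotype. Marker lists are given by their sums, and 1 gene that the rule names is not reported here. Nos1 and Rgs5 were picked knowing their values. The other settings tried were a block on replicate number, DESeq2 size factors, library size alone or upper-quartile scaling, DESeq2 1.42.0, limma-voom (limma 3.58.1), no filter or 1 CPM in 6 libraries, a threshold of 0.01, library sets as a block, the 3 closest library pairs summed, each library left out and, chosen after seeing the data, set 1 left out. Promoter windows are RefSeq's.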

Additional observations from a re-analysis of the deposited data

Results flagged for a closer look

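Among 50 groups of 6 libraries, covering 20 genes and 5 ratios, 2 held a library far from the others of its group, and chance gives about 1 in 20 such groups. Kcnj11 was at 0.658 CPM in Wnt GOF replicate 3, with a gap to the next library of 0.893 of the range of its group. Dpp6 was at 0.962 CPM in Wnt GOF replicate 5, with a gap of 0.683 of the range.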

How the results depend on the processing

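The members called were 1, and 0 at a threshold of 0.01, in limma-voom, with the closest pairs summed and without set 1, 2 when blocking on library set, and 0 to 1 with each library left out. Over all genes 74 were called, with 10 at the threshold of 0.01, 160 in DESeq2, 6 in limma-voom, 295 when blocking on library set (66.1% of them higher, against 86.5%), 1 with the closest pairs summed, 2 without set 1, and 39 to 177 with each library left out. Other potassium channel genes called were 2, with 0 at the threshold of 0.01, in limma-voom, with the closest pairs summed and without set 1, 1 with the replicate block, 5 when blocking on library set and 1 to 5 with each library left out. Other QT interval genes called were 1, with 0 in the same 4 settings and 2 when blocking on library set. At an unadjusted p under 0.05, limma-voom, the summed pairs and the fit without set 1 passed 4, 3 and 4 of the 10 members. Adjusted ratios passing were 0, and 0 to 2 with each library left out. Signs turned for Kcnj2 (0.014 without set 1) and with a single library left out for Kcnh2 (-0.011 without Wnt GOF replicate 3, range to 0.33), Kcne3 to Kcnq1 (0.013 without control replicate 6, range from -0.25) and Kcnj11 to Abcc9 (-0.0033 without Wnt GOF replicate 4, range to 0.38, and -0.051 without set 1). The cause was not tested. Of 230 fold changes of members recomputed, 220 kept their direction and their side of the threshold. The 3 other scalings gave medians of all genes between -0.0049 and 0.011. Replicate numbers shared across groups did not pair libraries (correlations of deviations from -0.377 to 0.463); with the replicate block, edgeR kept Nos1ap (adjusted p = 0.042) and called 55 genes. Depth limits Kcnj11, Kcnj12 and Kcna5 most, with 8, 19 and 25 counts in their lowest libraries.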
